A study of Mus musculus with 8 samples.

Results

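The genes described here are the 40 that make up the core cell cycle engine: cyclins, cyclin-dependent kinases (CDKs), their inhibitors, the retinoblastoma (Rb) and E2F families with their DP partners, and Skp2, the Cks subunits, Wee1 and Myc. They were chosen by symbol from a list of names, drawn up with earlier results of these data known, and all 40 were found among the 24062 genes of the RNA-seq comparison. In 14-3-3ε clones the RNA of 4 of them fell (Ccnd1, Ccna2, Wee1 and Cks1b) and that of 1 rose (Cdkn2c), at an adjusted p under 0.05 per the authors' deposited table. A further 32 were tested and not called, and Cdkn2a, Cdkn2b and E2f6 were not tested. Cdkn2a and Cdkn2b had no RNA and no listed cytosine at all.

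Cyclins bind and switch on CDKs. D cyclins with Cdk4 and Cdk6, then E and A cyclins with Cdk2, phosphorylate Rb and its relatives, which releases E2F factors to switch on the genes of DNA synthesis, and B cyclins with Cdk1 drive entry into mitosis. INK4 inhibitors (Cdkn2a to Cdkn2d) bind Cdk4 and Cdk6, and CIP/KIP inhibitors (Cdkn1a and Cdkn1b) bind cyclin-CDK complexes more broadly. In fibroblasts serum induces Myc and Ccnd1 on the way from rest into the cycle, and the Cdkn2a and Cdkn2b locus is known to be lost in NIH3T3.

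All samples came from stable clones of NIH3T3, a mouse embryo fibroblast line, grown with 10% serum. Control clones 2 and 3 carried the control vector, and clones 10 and 12 carried 14-3-3ε, an adaptor protein that binds phosphorylated partners, in p3xFLAG-CMV-10, a plasmid with a FLAG tag and a CMV promoter. The labels of all samples, control clones included, carry the same protocol, with selection in 800 µg/mL of G418 and picking of single colonies, so a group is 2 clones and differences between clones and an effect of 14-3-3ε are only weakly separated. Each clone gave 1 RNA-seq and 1 reduced representation bisulfite sequencing (RRBS) library, 8 samples in 4 groups of 2. Both assays were available as 1 table of the authors' comparison each, without values per clone, and the standard errors are the sole measure of spread. The sign of neither table is stated. Positive values were read as higher in 14-3-3ε clones, and every direction rests on that. The mouse 14-3-3ε gene itself, Ywhae, did not check this reading: its log2 fold change was -0.03 with adjusted p 0.942 per the authors' deposited table. Of 10 fibroblast markers all 10 were tested and 4 rose (Col1a1, Col1a2, Pdgfra and Pdgfrb) per the authors' deposited table. Among markers of other cell types, Kdr and Emcn of endothelium and Hbb-bs of blood were listed at 0, and Epcam and Cdh1 of epithelium had mean normalized counts of 0.502 and 0.732 per the authors' deposited table. The other endothelial markers Pecam1, Cdh5 and Tek were at 5.72, 8.17 and 4.66 and Ptprc of blood cells at 10.2 per the authors' deposited table. Higher levels were listed for the keratins Krt8 and Krt14 (51.1 and 52.7) and the macrophage genes Cd68 and Lyz2 (110 and 36.6), and of these Krt14 fell, per the authors' deposited table. The part of these markers in the cell cycle results was not tested. In bulk RNA, fewer cycling cells and less RNA per cell cannot be told apart.

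Among all 11482 genes with an adjusted p, 6.15% rose and 4.74% fell per the authors' deposited table. Of the 37 tested cell cycle genes 1 rose and 4 fell, which is 2.70% and 10.8%. Most estimates were small and on the same side. Log2 fold changes were below 0 for 29 of the 37 (78.4%), against 50.2% of all tested genes, and their median was -0.40, against -0.00 for all tested genes, per the authors' deposited table. The 95% interval, from the deposited standard error by the normal approximation, excluded 0 for 14 of the 37, of which 11 lay below 0 and 3 above, and for 2733 of all 11482 tested genes. At an unadjusted p under 0.05, 1358 of all tested genes lay below 0 and 1375 above per the authors' deposited table. The median standard error of the 37 was 0.27 in log2 units per the authors' deposited table.

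**Figure D1:**
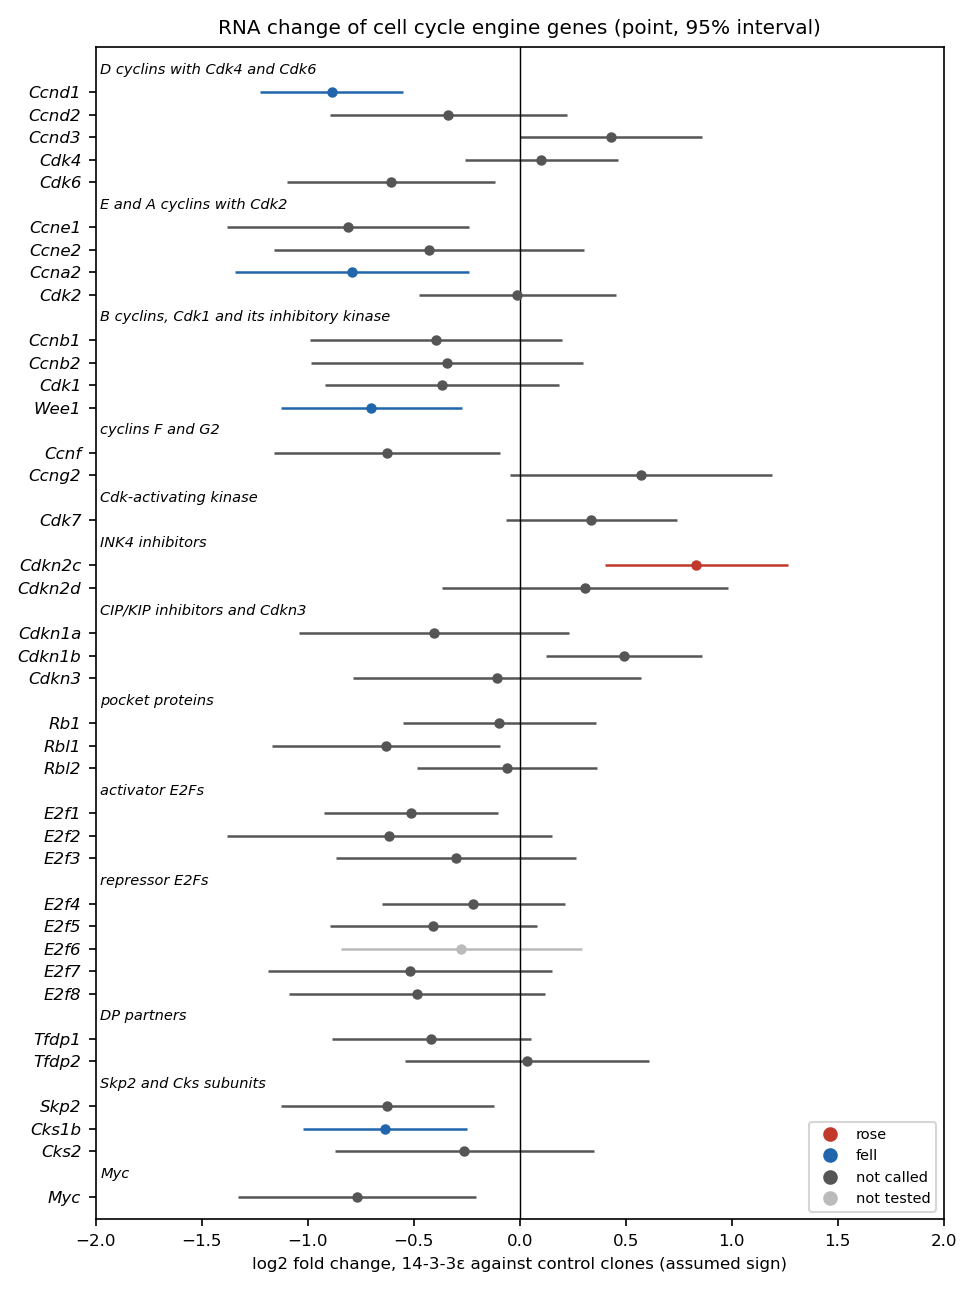
RNA log2 fold change (x axis) of each cell cycle gene with a fold change, 14-3-3ε clones against control clones in the assumed sign, by role. Points are the deposited estimates and lines 95% intervals; Ccnd1, Ccna2, Wee1 and Cks1b (blue) fell, Cdkn2c (red) rose, and 29 of the 37 tested points lie below 0.

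Cyclin D1, which links growth signals to the cycle, gave the clearest change of the 40. Its gene Ccnd1 lies on chromosome 7 from 144929931 to 144939831 in build mm10 and fell by 0.89 on the log2 scale, 1.85-fold, at a mean normalized count of 6060.2 per the authors' deposited table. The standard error was 0.17, the 95% interval -1.23 to -0.55 and the adjusted p 1.67e-05 per the authors' deposited table. Ccnd1 overlaps the annotated gene LTO1, and the sources used here do not say whether counting used strand. The other D cyclins were not called and pointed to opposite sides: Ccnd2 had a log2 fold change of -0.34 (standard error 0.29, adjusted p 0.511) and Ccnd3 one of 0.43 (0.22, 0.208) per the authors' deposited table. Of their kinases, Cdk6 had a log2 fold change of -0.61 (standard error 0.25, adjusted p 0.1003) and Cdk4 one of 0.10 (0.19, 0.798) per the authors' deposited table. The interval of Cdk4, -0.26 to 0.46, excludes a fall of the size seen for Ccnd1. Whether Ccnd1 differed from the other D cyclins in its change was not tested.

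Of the cyclins that act at the start of and during DNA synthesis, Ccna2 fell and Ccne1 narrowly missed the threshold. Ccna2, the gene of cyclin A2 on chromosome 3 from 36564865 to 36573038, fell by 0.79 on the log2 scale, 1.73-fold, at a standard error of 0.28 with adjusted p 0.0466 per the authors' deposited table. This call is marginal: adjusted over all 17478 genes with a p-value, the p was 0.0701. Its span overlaps that of Exosc9. Ccne1, one of the cyclin E genes, stood at -0.81 (standard error 0.29, adjusted p 0.0502) per the authors' deposited table, and the p was 0.0484 when adjusted over genes with a mean normalized count of at least 100. Estimate and error of Ccne1 are therefore close to those of Ccna2, on the other side of the threshold. Ccne2 was at -0.43 with a wide interval of -1.16 to 0.30 per the authors' deposited table. Cdk2, the partner of both cyclin classes, was at -0.01 with an interval of -0.48 to 0.45 per the authors' deposited table, which leaves room for changes of that size in either direction.

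In the mitotic group only the brake on Cdk1 was called. Wee1, the kinase that holds Cdk1 inactive by phosphorylation, lies on chromosome 7 from 110122059 to 110143299 and fell by 0.70 on the log2 scale, 1.62-fold, at a standard error of 0.22 with adjusted p 0.0187 per the authors' deposited table. Cdk1 itself and the cyclin B genes Ccnb1 and Ccnb2 had log2 fold changes of -0.37, -0.40 and -0.34, at adjusted p values of 0.460, 0.455 and 0.577 per the authors' deposited table. These estimates are about as large as their standard errors of 0.28 to 0.33. Ccnf, a cyclin that serves as a substrate receptor of a ubiquitin ligase, was at -0.63 (adjusted p 0.124), and Ccng2, a cyclin linked to cell cycle arrest, was at 0.57 (adjusted p 0.254) per the authors' deposited table. Cdk7, the kinase of the complex that activates other CDKs, was at 0.34 with adjusted p 0.318 per the authors' deposited table.

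The inhibitors split by gene. Cdkn2c, whose product p18 INK4c blocks Cdk4 and Cdk6, was the only gene of the 40 that rose. It lies on chromosome 4 from 109660876 to 109666756 and rose 1.78-fold, by 0.83 on the log2 scale, with a standard error of 0.22, a 95% interval of 0.40 to 1.26 and adjusted p 0.00341 per the authors' deposited table. Its mean normalized count was 895 per the authors' deposited table, and no other annotated gene overlaps it. The remaining INK4 gene with RNA, Cdkn2d, was at 0.31 at a standard error of 0.35 with adjusted p 0.651 per the authors' deposited table. Of the CIP/KIP genes, Cdkn1b, which encodes p27, was at 0.49 at a standard error of 0.19 with adjusted p 0.0700 per the authors' deposited table. Cdkn1a, which encodes p21 and is a target of p53, pointed to the other side at -0.40 at a standard error of 0.32 with adjusted p 0.484 per the authors' deposited table. Cdkn3, a phosphatase that acts on CDKs, was at -0.11 with adjusted p 0.894 per the authors' deposited table.

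None of the pocket proteins, E2F factors or DP partners was called, and 11 of the 12 tested genes lay below 0. Rbl1, which encodes p107 and is itself a known E2F target, was at -0.63 at a standard error of 0.27 with adjusted p 0.122 per the authors' deposited table. Rb1 and Rbl2 (p130) were at -0.10 and -0.06, at adjusted p values of 0.855 and 0.906 per the authors' deposited table. Rb1 and Rbl2 thus stood near 0 while the estimate for Rbl1 was lower; the differences among them were not tested. Of the activator E2Fs, E2f1 was at -0.51 (standard error 0.21, adjusted p 0.0980), E2f2 at -0.62 (0.39, 0.341) and E2f3 at -0.30 (0.29, 0.581) per the authors' deposited table. Of the tested cell cycle genes E2f2 had the lowest mean normalized count, 97.1, and the largest standard error per the authors' deposited table. The repressors E2f4 and E2f5 were at -0.22 and -0.41, and the atypical E2f7 and E2f8 at -0.52 and -0.48, with adjusted p between 0.318 and 0.601 per the authors' deposited table. E2f6 had a mean normalized count of 7.66 and no adjusted p per the authors' deposited table. The DP genes, which encode the partners that E2Fs need to bind DNA, were at -0.42 for Tfdp1 (adjusted p 0.276) and 0.03 for Tfdp2 (adjusted p 0.968) per the authors' deposited table.

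Cks1b, which encodes a small CDK-binding subunit that helps the ubiquitin ligase adaptor Skp2 to recognise p27, fell 1.55-fold. On chromosome 3 from 89415472 to 89418291, it fell by 0.63 on the log2 scale at a standard error of 0.20 with adjusted p 0.0182 per the authors' deposited table. A similar gene copy, Cks1brt, had a mean normalized count of 1.25, against 1469 for Cks1b, per the authors' deposited table. Skp2 had nearly the same estimate, -0.63, at a larger standard error of 0.26 with adjusted p 0.0996 per the authors' deposited table, while Cks2 was at -0.26 with adjusted p 0.672. Myc, the growth transcription factor, was at -0.77 at a standard error of 0.29 with adjusted p 0.0621 at a mean normalized count of 6405.4 per the authors' deposited table. Among the 5 tested genes with the lowest estimates, Ccnd1, Ccne1, Ccna2, Myc and Wee1, the span was -0.89 to -0.70. The called ones among them had standard errors of 0.17 to 0.28, and Ccne1 and Myc, not called, had 0.29 each.

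**Figure D2:**
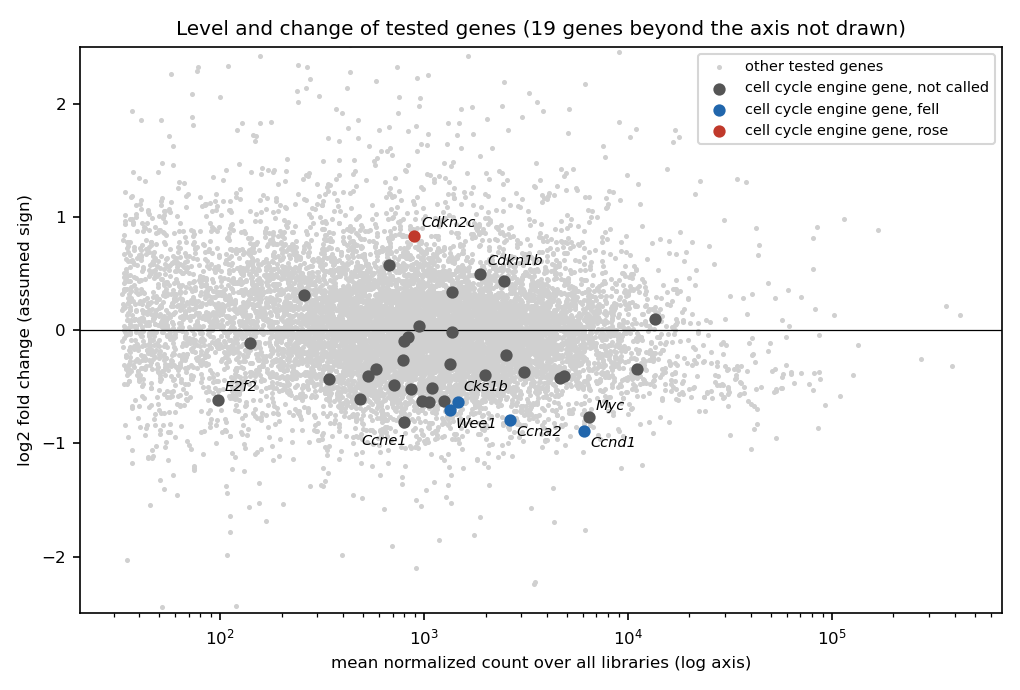
Log2 fold change (y axis, assumed sign) against the mean normalized count over all libraries (x axis, log scale) for tested genes, with 19 genes beyond 2.5 on either side not drawn. Cell cycle genes are large points; they span mean counts of 97.1 to 13594, and the called ones lie at 895 and above.

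Genes downstream of these regulators were counted from lists of names. Of 45 tested E2F targets of the G1/S transition, 18 fell (40%) and none rose, against 4.74% and 6.15% of all tested genes. All 45 lay below 0, against 50.2% of all tested genes, and the median was -0.72 per the authors' deposited table. Examples are Dtl, a substrate receptor of a ubiquitin ligase that acts in S phase, at -1.21, and the replication initiation genes Mcm10 and Cdt1 at -1.20 and -1.18 in log2 units per the authors' deposited table. Of 36 tested G2/M genes, 9 fell (25%) and none rose, all 36 lay below 0 and the median was -0.59 per the authors' deposited table. Here Ect2 and Anln, which act in cytokinesis, fell by 0.96 and 0.93 and Ube2c, the ubiquitin-conjugating enzyme of the APC/C, fell by 0.91 in log2 units per the authors' deposited table. Of 18 Myc target genes, 10 fell (55.6%) and none rose, with a median of -0.65 per the authors' deposited table. Nolc1, Nop56 and Ncl, genes of the nucleolus, fell by 1.07, 0.96 and 0.92 in log2 units per the authors' deposited table. The medians of these 3 lists lay below that of the cyclins, CDKs, inhibitors, E2Fs and Rb genes (-0.40), a description and not a test of their difference.

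In the Myc and Max network, 2 of 11 rose and none fell with a median of -0.10: Mycn, a close relative of Myc, rose 6.36-fold, by 2.67 at a standard error of 0.34 with adjusted p 1.01e-12, and Mxd4, an antagonist of Myc, rose by 1.10, per the authors' deposited table. The related Myc gene, not called, stood at -0.77. Its mean normalized count was 6405.4, against 394.8 for Mycn, per the authors' deposited table. Of 25 tested cyclins and CDKs outside the core set, 1 rose and 2 fell with a median of -0.08: Cdk14 rose by 0.73, Cdk18 fell by 0.86 and Cdk8, a kinase of the Mediator complex, fell by 0.62 in log2 units per the authors' deposited table. Of 15 tested regulators of CDK activity 1 fell, Cdc25b, a phosphatase that activates Cdk1, by 0.85 in log2 units per the authors' deposited table. Wee1 and Cdc25b act in opposite ways on inhibitory phosphorylation of Cdk1, and both fell. None of the 9 genes in the list of MuvB, DREAM and Foxm1, regulators of cell cycle genes, was called, with a median of -0.35 per the authors' deposited table. Of these 9, 8 lay below 0, and 2 did so at an unadjusted p under 0.05. Among all 11482 tested genes 1358 lay below 0 at that unadjusted threshold per the authors' deposited table. The shares called among the other cyclins and CDKs (4% rose, 8% fell) and the regulators of CDK activity (6.67% fell) are near those of all tested genes, 6.15% and 4.74%. In the Myc and Max network the share that rose was 18.2%. A total of 8 genes stand in more than 1 list.

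**Figure D3:**
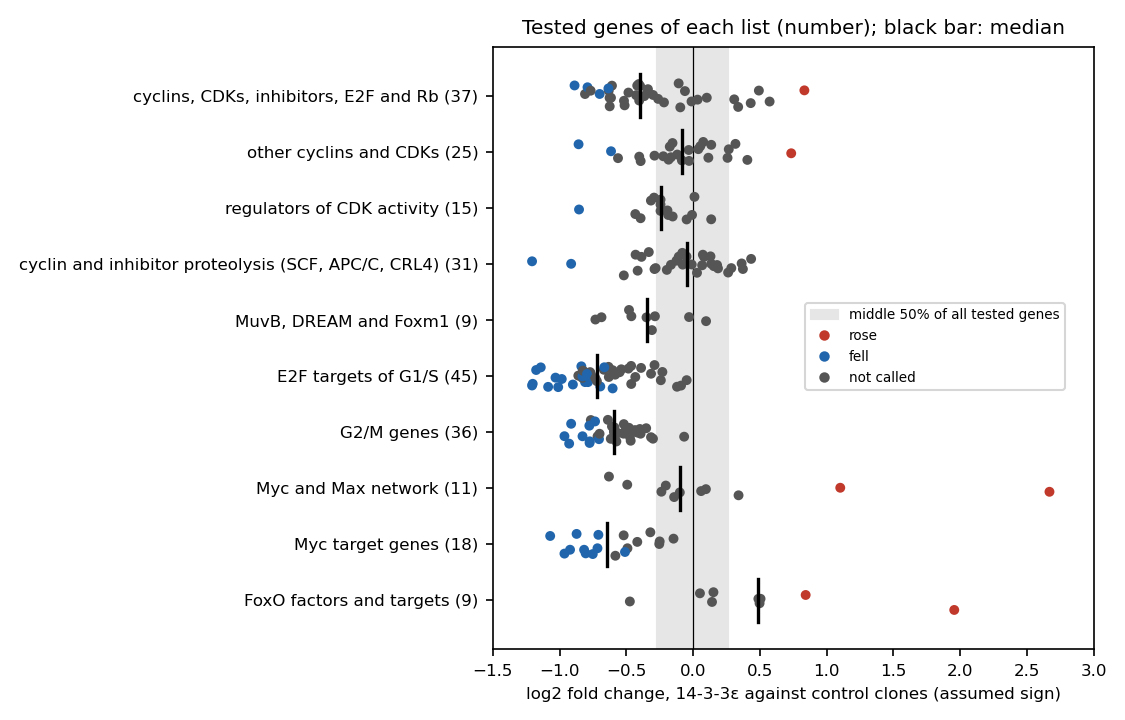
Log2 fold change (x axis, assumed sign) of every tested gene of each list, with the number tested in the row label and the median as a black bar; the grey band is the middle 50% of all tested genes, from -0.27 to 0.26. The row of cyclins, CDKs, inhibitors, E2F and Rb has its median at -0.40 and the E2F targets of G1/S at -0.72, with no target above 0.

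Both Cdkn2a, which encodes p16 INK4a and p19 ARF, and Cdkn2b, which encodes p15 INK4b, were listed with a mean normalized count of 0 per the authors' deposited table, as were 27.4% of all listed genes. On chromosome 4 they lie at 89274473 to 89294619 and at 89306289 to 89311032. In RRBS, which reads fragments cut by MspI at CCGG, neither gene held a listed cytosine, while each of the other 38 genes held between 15 and 336 per the authors' deposited table. The nearest listed cytosines were at 89226342 and 89443049, a gap of 216.7 kb that holds both genes whole. Its edges lie 48.1 kb from Cdkn2a and 132 kb from Cdkn2b. Such gaps are not unique. Counting this one, 19 of the 160249 gaps between listed cytosines on chromosome 4 were at least as long. On the autosomes 167 of 2298979 were at least as long per the authors' deposited table. The 250 bases before each listed start, from RefSeq on GRCm38.p6 (the assembly of mm10), are shown 5′ to 3′ on the gene's strand with each CCGG in capitals, and those of the related Cdkn2c, further along the chromosome, for comparison.
Cdkn2a start 1, chr4:89294620-89294869, minus strand: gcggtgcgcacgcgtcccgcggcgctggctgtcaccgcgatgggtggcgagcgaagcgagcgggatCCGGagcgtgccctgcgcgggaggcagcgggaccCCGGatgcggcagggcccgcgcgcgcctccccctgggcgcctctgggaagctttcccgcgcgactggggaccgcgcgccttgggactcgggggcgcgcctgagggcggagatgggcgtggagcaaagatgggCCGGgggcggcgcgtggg
Cdkn2a start 2, chr4:89282193-89282442, minus strand: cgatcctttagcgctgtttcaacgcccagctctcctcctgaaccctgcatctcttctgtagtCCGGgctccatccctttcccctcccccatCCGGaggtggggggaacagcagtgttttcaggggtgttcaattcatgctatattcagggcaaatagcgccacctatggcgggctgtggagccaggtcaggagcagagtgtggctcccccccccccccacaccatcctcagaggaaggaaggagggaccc
Cdkn2b, chr4:89311033-89311282, minus strand: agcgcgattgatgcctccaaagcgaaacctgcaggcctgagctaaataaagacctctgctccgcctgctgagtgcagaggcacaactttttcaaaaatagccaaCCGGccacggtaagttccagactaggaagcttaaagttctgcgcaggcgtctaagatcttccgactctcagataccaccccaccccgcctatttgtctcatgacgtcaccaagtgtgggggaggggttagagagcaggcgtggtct
Cdkn2c start 1, chr4:109666757-109667006, minus strand: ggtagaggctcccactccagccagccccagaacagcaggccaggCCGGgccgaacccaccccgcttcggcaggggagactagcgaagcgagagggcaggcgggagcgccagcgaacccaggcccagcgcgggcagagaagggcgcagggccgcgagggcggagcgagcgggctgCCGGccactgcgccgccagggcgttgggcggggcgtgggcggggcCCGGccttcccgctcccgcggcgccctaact

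The first Cdkn2a stretch holds 40 CpGs and 3 CCGG sites with 0 listed cytosines, and the Cdkn2c stretch holds 29 CpGs and 3 CCGG sites with 46 listed cytosines per the authors' deposited table. Over windows of 300 bases, from 250 before to 50 after a start, 9323 of 10702 promoters of the RefSeq table with at least 2 CCGG sites had a listed cytosine (87.1%). The share was 80.5% with exactly 2 sites, as at the second Cdkn2a start and at Cdkn2b (1 of its 2 lies past the printed stretch), and 89.9% with exactly 3, as at the first Cdkn2a start. Of 30 such promoters of the cell cycle genes, 26 had one, and the 4 without were both of Cdkn2a, that of Cdkn2b and the second of Ccnd3. Before the gap, at lower coordinates, other genes were expressed. Mtap, a methionine salvage enzyme gene whose end lies 45.3 kb before the gap, had a mean normalized count of 14593 and a log2 fold change of 0.12 (adjusted p 0.803) per the authors' deposited table. Of 42 listed genes within 1 Mb, 26 were at 0 and 5 had a mean normalized count of at least 10, namely Focad (1545), Klhl9 (4482), Mir31 (197.9), Gm12603 (417.5) and Mtap, none of them called per the authors' deposited table. All 5 lie before the gap. Past it, the only listed genes in this span, Dmrta1 and Zfp352, were at 0. A mean of 0 means that no RNA library of either group had a count. A cytosine may go unlisted when some or all libraries lack reads there, and whether DNA is missing was not measured.

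**Figure D4:**
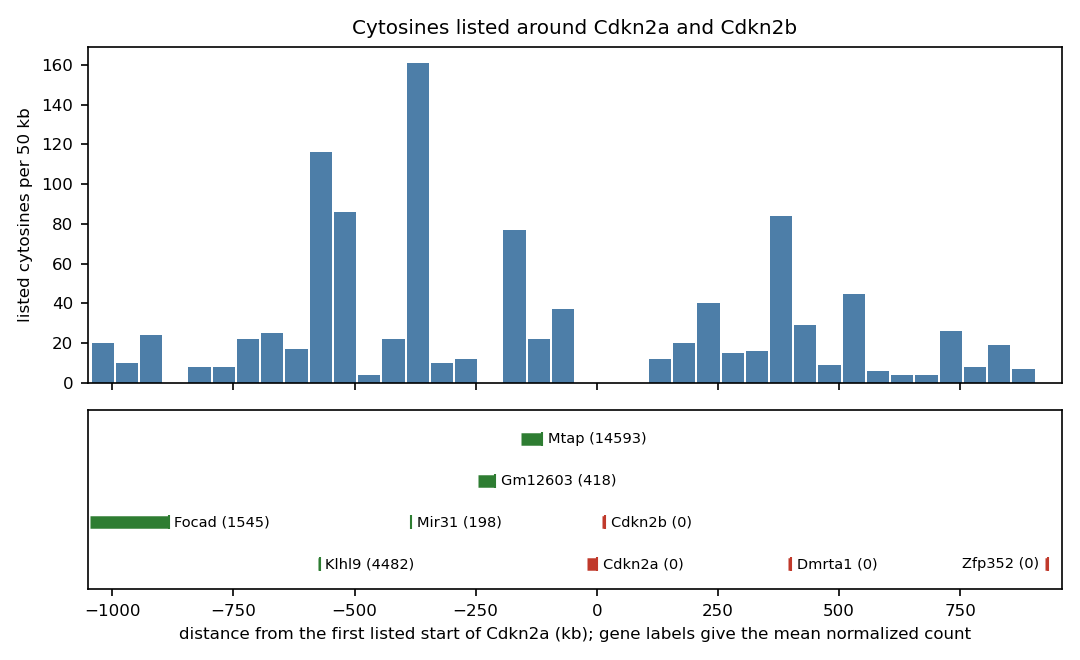
Listed RRBS cytosines per 50 kb (upper panel, y axis) by distance from the first listed start of Cdkn2a (x axis, kb). The lower panel draws selected genes of the region with their mean normalized counts (green above 0, red at 0). Of 42 listed genes within 1 Mb, 26 were at 0, and most of these are not drawn. Of 40 bins 6 hold no cytosine, and Cdkn2a and Cdkn2b lie in a gap of 216.7 kb; the median bin holds 15.5 cytosines.

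Few cytosines around the starts of the remaining cell cycle genes were called in RRBS. A start window spans 1000 bp on each side of a listed start; it was called when at least 5 cytosines were listed, at least 3 of them had q under 0.05, calls made up at least 10%, and none went the other way. The RefSeq table used lists 40 starts for 31 of the 40 genes, of which 32 had at least 5 cytosines. Of these 32 windows 1 was called higher and none lower, against 1.14% called higher and 3.10% called in either direction of 17244 windows of all genes. At single cytosines, 21 of 2843 were higher and 27 lower, 1.69% in all, against 3.30% of all cytosines in start windows, by the q-values per the authors' deposited table. Windows of neighbouring starts share cytosines. The mean difference lay within 1 percentage point of 0 in 27 of the 32 windows and its median was 0.157 points, averaged from the authors' deposited table. Exactly 16 windows (50%) held no called cytosine, near the 42.8% of the windows of all genes. The extremes were a mean of -11.9 points at Ccnb2 and 12.1 points at the first start of Ccnd3, over 11 and 7 cytosines with none called per the authors' deposited table.

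The called window lies at the second listed start of Cdkn1a on chromosome 17, at position 29093769. There 7 of 69 cytosines were higher, by 4.29 to 15.6 points and 576 to 733 bp downstream of the start, per the authors' deposited table. The mean over the window was 1.19 points, averaged from the authors' deposited table. This call did not hold with flanks of 500 or 2000 bp, with q under 0.01 or when differences under 25 points were left out. Calls of both directions or too few of them occurred at other starts. At Cdkn1b 5 cytosines upstream of the start were lower, the largest by -28.8 points, and 2 downstream were higher, of 107 per the authors' deposited table. At the first start of E2f2 4 were higher, by up to 47.0 points, and 1 lower, of 99 per the authors' deposited table. E2f8 had 3 higher and 2 lower of 179, Tfdp1 1 higher and 4 lower of 111, and Cdk6 3 lower of 135 per the authors' deposited table.

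Few or no cytosines were called near the ends or starts of genes whose RNA changed. No cytosine was called among 158 and 62 at the starts of Cdkn2c, with means of 0.633 and 0.960 points, or among 37 at the start of Cks1b, with a mean of 0.392 points, per the authors' deposited table. For 9 genes without a listed start, windows at both annotated gene ends were used instead: Ccnd1 had 2 lower cytosines of 69 at its upper end, Wee1 1 lower of 190 at its lower end and Ccna2 none of 36 at its upper end per the authors' deposited table. None of the 10 gene-end windows with cytosines was called. Among them Rb1 had the most calls, 9 lower and 2 higher of 167 at its upper end, down to -40.4 points, per the authors' deposited table. Over whole gene bodies, 39 of 4298 cytosines were higher and 47 lower, 2.00% in all, against 4.74% of all 2361680 listed cytosines, per the authors' deposited table. These sets are unlike, since all listed cytosines include those outside genes. The share over the bodies of all genes was not computed. How clones of 1 group differ in methylation is not shown by q-values.

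**Figure D5:**
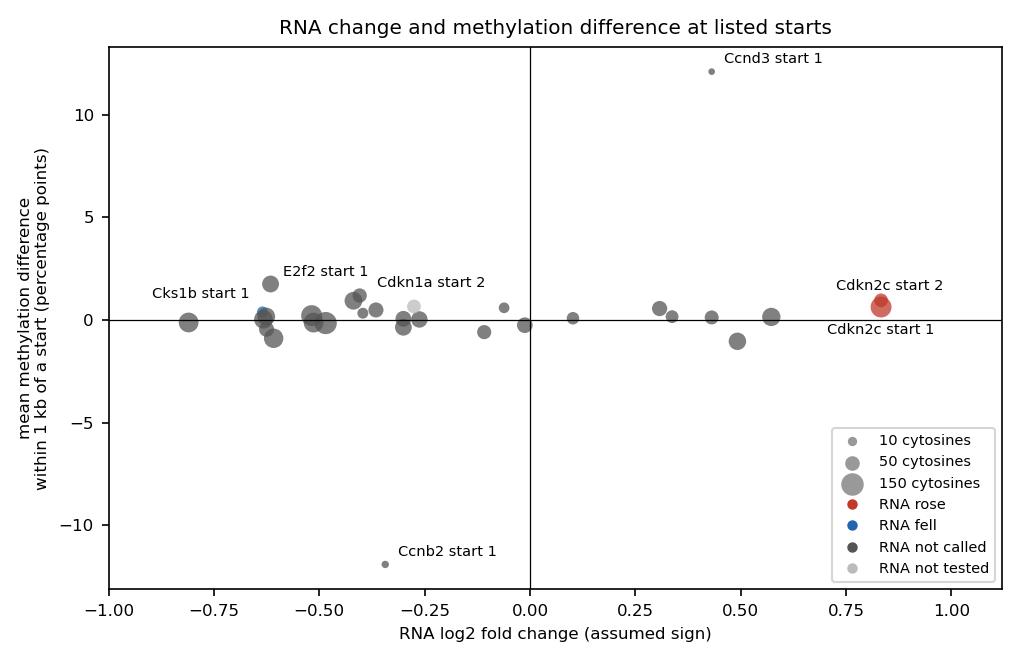
Mean methylation difference within 1 kb of listed starts with at least 5 cytosines (y axis, percentage points) against the RNA log2 fold change of the gene (x axis). Both are in the assumed sign, and point area grows with the number of cytosines. The second start of Tfdp1, with the same values as the first, is not drawn. Most points lie within 1 point of 0 on the y axis at any fold change, and the far ones, Ccnb2 and Ccnd3, rest on 11 and 7 cytosines.

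Promoter sequences were searched for short words on both strands in the windows of 300 bases. An E2F word (TTTGGCGC, TTTCCCGC, TTTGCCGC, TTTCGCGC, TTTGGCGG or TTTCCCGG) occurred in 10 of 40 promoters, 25% and 9 of 31 genes, against 3.98% of all 32851 promoters. The cell cycle homology region word CHR (TTTGAA or TTTCGAA) occurred in 11 promoters (27.5%, against 18.5% of all), CCAAT in 19 (47.5%, against 37.4%) and the E box CACGTG, the word that Myc and Max bind, in 6 (15%, against 7.15%). In the downstream lists, 47.4% of promoters of E2F targets of G1/S held an E2F word and 15.8% a CHR word. Of those of G2/M genes, 2.94% held an E2F word and 70.6% a CHR word. CCAAT occurred in 73.7% and 76.5% of the promoters of these lists, in that order, and CACGTG in 5.26% and 5.88%. Every E2F word and CACGTG contain a CpG. The median number of CpGs was 7 over all promoters and 24 over those with at least 2 CCGG sites. Of the 40 promoters of the cell cycle genes, 30 have at least 2 such sites. The shares were not compared among promoters of like CpG number. The genes with an E2F word were Rbl1, Cdkn2a, E2f2, E2f3, E2f7, Tfdp1, Cdk1, Cdk2 and Skp2. In Cdk1 and E2f3, which hold both an E2F and a CHR word, the words do not overlap. None of the 9 genes with an E2F word was called, with log2 fold changes from -0.63 for Rbl1 to -0.01 for Cdk2 where tested per the authors' deposited table. Cdkn2a among them was not tested. Ccnd1, Ccna2 and Wee1, which fell, have no listed start and were not searched. Over all tested genes 6.15% rose and 4.74% fell, so the absence of a call among so few genes says little. The 250 bases before the starts of Rbl1 and Cdk1 are shown with the E2F word in capitals, as a pocket protein and a kinase gene with such a word, and those of Cks1b with both CHR words in capitals, since Cks1b is the only gene that fell and has a listed start.
Rbl1, chr2:157204535-157204784, minus strand: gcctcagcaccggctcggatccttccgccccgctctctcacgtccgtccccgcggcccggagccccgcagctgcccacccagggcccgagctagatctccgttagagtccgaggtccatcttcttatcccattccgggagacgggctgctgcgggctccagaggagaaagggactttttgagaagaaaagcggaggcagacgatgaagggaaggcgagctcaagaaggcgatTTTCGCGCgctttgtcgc
Cdk1, chr10:69352913-69353162, minus strand: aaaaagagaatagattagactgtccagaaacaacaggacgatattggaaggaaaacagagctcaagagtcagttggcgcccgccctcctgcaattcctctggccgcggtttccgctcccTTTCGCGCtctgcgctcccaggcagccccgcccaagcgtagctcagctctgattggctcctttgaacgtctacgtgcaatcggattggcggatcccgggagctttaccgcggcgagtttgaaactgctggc
Cks1b, chr3:89418292-89418541, minus strand: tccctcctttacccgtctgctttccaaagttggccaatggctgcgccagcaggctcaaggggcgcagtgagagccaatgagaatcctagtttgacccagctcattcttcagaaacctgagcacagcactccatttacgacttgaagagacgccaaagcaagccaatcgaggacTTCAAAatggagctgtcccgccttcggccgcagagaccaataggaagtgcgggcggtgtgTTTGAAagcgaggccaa

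The E2F word of Rbl1 spans positions -18 to -11 from its start and that of Cdk1 spans positions -131 to -124 from its start, while the CHR words of Cks1b span -77 to -72 and -17 to -12. RRBS covered the Rbl1 and Cdk1 stretches with 33 and 8 listed cytosines, and that of Cks1b, which has no CCGG site, with 0, per the authors' deposited table. The start window of Rbl1 held no called cytosine and that of Cdk1 held 1. A word match is a description of sequence and does not show that a factor binds there.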

How the data were processed

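RNA-seq and RRBS of NIH3T3 clones were analysed from 1 comparison table each, as deposited by the authors. Trim Galore, Bismark, Bowtie2, TopHat2, HTSeq, methylKit and DESeq2 and build mm10 are named in the submitters' processing notes, without versions, roles or settings. For RNA, the authors deposited a mean level, a signal read here as DESeq2's mean normalized count, which is not divided by gene length. Fold changes and their standard errors were deposited by the authors as log2 values; they behave as moderated estimates, which understates changes at low counts. The deposited statistic is a score, and the authors also deposited p-values with their adjusted form. The RRBS table holds, per the file headers, p-values, q-values and differences in percent methylation for 2361680 cytosines, after removal of 253 duplicate lines. Depth and coverage per sample are unknown, so no counting interval is given. How clones entered the methylation test is not stated in the sources used here.

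Genes were called at the deposited adjusted p under 0.05; Benjamini-Hochberg adjustment over the 11482 genes returned the deposited values. Start windows were called as described above, with RefSeq starts of GRCm38.p6, and sequences are credited to the same table. The scripts (Python 3.11.15, pandas 2.3.3) were tested on simulated data. All 40 genes were to be named, with up to 3 called genes per direction of each other list and genes within 1 Mb of Cdkn2a with a mean count of at least 10. Genes named outside this rule include the tested FoxO genes without a call, Ywhae, Cks1brt and cell type markers. The 40 genes and the lists were chosen with earlier results of these data known. Alternatives varied the threshold, the genes adjusted over, the window and the strand handling.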

Additional observations from a re-analysis of the deposited data

How the results depend on the processing

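Counts of called genes depended on the threshold. Of the 4 genes that fell, 1 (Ccnd1) passed at an adjusted p under 0.01, and at under 0.1 the number was 8, with Ccne1, E2f1, Skp2 and Myc added. The number that rose was 2 at an adjusted p under 0.1, with Cdkn1b added. Over all tested genes these thresholds gave 413 and 944 that rose and 252 and 795 that fell. Adjusted over all genes with a p-value, 3 fell without Ccna2, and over genes with a mean count of at least 100, 5 fell with Ccne1 added. The median log2 fold change stayed between -0.40 and -0.38 under the 3 alternatives run. The start window called higher became 0 with flanks of 500 bp, with flanks of 2000 bp, with q under 0.01 and with at least 25 points required, and remained 1 with strands merged. No paired analysis was possible because the control clones (2 and 3) and the 14-3-3ε clones (10 and 12) share no number and the tables hold no values per clone. Leaving out a clone was not run for the same reason. Depth is unknown and each group holds 2 clones, which limits the precision of every fold change.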

Other observations

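FoxO factors, which switch on genes of arrest and stress defence in resting cells, were counted with some of their targets. Of 9 tested genes 2 rose (22.2%) and none fell, against 6.15% and 4.74% of all tested genes. Their median log2 fold change was 0.49 per the authors' deposited table. Sesn3 and Sesn1, which encode sestrins that restrain growth signalling through mTORC1, rose 3.88-fold and 1.79-fold, at adjusted p values of 1.13e-09 and 0.00834 per the authors' deposited table. The factors Foxo1 and Foxo3 were at 0.50 and 0.49 and were not called, at adjusted p values of 0.161 and 0.254 per the authors' deposited table. Foxo4, Bcl6, Trp53inp1 and Bcl2l11 were at 0.14, 0.05, 0.15 and 0.50 and were not called either. Irs2, an adaptor of insulin signalling, was at -0.47 with adjusted p 0.152 per the authors' deposited table.

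Subunits and adaptors of the ubiquitin ligases that destroy cyclins and their inhibitors, the SCF, APC/C and CRL4 families, gave 2 falls (Dtl and Ube2c) and no rise among 31 tested genes, with a median of -0.05 per the authors' deposited table. That is 6.45% of the list, near the 4.74% of all tested genes that fell. Both genes also stand in the lists of E2F targets or G2/M genes.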
